A study of Rattus norvegicus with 71 samples.

Results

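A set of 10 genes of reactive glia and inflammatory signalling was followed in rat primary cortical cultures exposed to cytosine arabinoside or 5-fluorouracil: Vcam1, Cd44, Timp1, S1pr3, Osmr, Stat3, Vim, Serpina3n, C3 and Lcn2. The genes were chosen by symbol, with earlier results of these data known. Of the 10 listed genes, 9 have a row in the count table of 19771 genes, and all 9 were among the 15343 genes that passed the low-count filter. Serpina3n was not analysed here.

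When glial cells of the brain meet injury or inflammatory signals, they become reactive and switch on genes for filaments, adhesion molecules, secreted enzyme inhibitors and immune proteins. Cytokines of the interleukin 6 family act through receptors such as the oncostatin M receptor and the transcription factor Stat3, while interleukin 1 and tumour necrosis factor act largely through NF-kB. Several of the genes are also made in resting or dividing glia and in glial precursors, so their RNA in a mixed culture depends both on how much each cell makes and on which cells are present. Cytosine arabinoside is a nucleoside analog used against leukaemia and, in neuronal culture, to hold back dividing glia. 5-Fluorouracil is a pyrimidine analog whose products block thymidylate synthesis and enter RNA and DNA.

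The series holds 71 polyA-selected RNA libraries from cultures on microelectrode array plates, with 6 compounds in 25 groups of 1 to 3 libraries. Wells were seeded with 150000 cells and dosed from 2 h after plating, the solutions were renewed on days 5, 7 and 9, and RNA was taken on day 12. A sample pooled 2 to 3 wells dosed alike, and the work was done on 2 separate cultures. With 2 cultures, the 3 libraries of a group cannot all come from different cultures, and the labels do not tie libraries to cultures. The p-values treat each library as 1 sample, so they rest on the variation among these samples, part of which may be technical. Cytosine arabinoside had 3 libraries each at 0 (vehicle), 0.1, 0.3 and 1 µM, 12 in all. 5-Fluorouracil had 2 libraries at 0 µM (vehicle) and 3 each at 0.1, 0.3 and 1 µM, 11 in all. Sample titles carry 1 of 2 library codes, GRC321 or GRC327. Replicate 1 of each group was GRC321 and the others GRC327, except that both 0 µM libraries of 5-fluorouracil were GRC327, so its levels are not matched by code while its fitted changes hold a term for the code.

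Levels are given in CPM, the count of a gene relative to its library's TMM-scaled total, and changes as log2 fold changes ± SE from 1 edgeR quasi-likelihood model of all 71 libraries. A gene was called where its Benjamini-Hochberg adjusted p over all 15343 genes was under 0.05, and a value in brackets behind a change is that adjusted p. Gene positions are those of the deposited table, whose build is not named. Total counts ran from 5.21 to 43.1 M per library, and from 6.50 to 17.7 M in the cytosine arabinoside and 5-fluorouracil libraries. The samples are labelled as cortical neurons, yet in the 0 µM groups of these 2 compounds all 22 astrocyte markers and all 18 oligodendrocyte markers on the lists used had counts, beside the 18 neuronal markers. The third 5-fluorouracil 0.1 µM library stood apart, with 367 CPM of Vim and a summed astrocyte marker level of 8707 CPM against 4268 CPM in the lowest library of that group. The second 5-fluorouracil 0 µM library stood apart in its choroid plexus and ependymal markers, whose sum was 22.3 CPM there, 1.44 CPM in the first and at most 6.48 CPM in the other libraries of the series. Of these markers 7 are in the table and 4 were tested, and none was called in the comparisons of the 2 compounds. The share of counts from mitochondrial genes ran from 1.91 to 9.12% over the 71 libraries. These are bulk libraries, in which fewer cells of a type and less RNA per cell cannot be told apart.

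The bases before the start sites of Vcam1 and Osmr are shown because these genes had the largest falls at 1 µM cytosine arabinoside, and because each holds a match to the motif of a factor of inflammatory signalling. They are the 250 bases before the RefSeq start in GRCr8, on the minus strand, at chr2:206742784-206743033 for Vcam1 and chr2:57688562-57688811 for Osmr, both outside the transcript. Capitals mark the match to the NF-kB (kappaB) consensus in Vcam1 and to the AP-1 motif TGANTCA in Osmr.
Vcam1: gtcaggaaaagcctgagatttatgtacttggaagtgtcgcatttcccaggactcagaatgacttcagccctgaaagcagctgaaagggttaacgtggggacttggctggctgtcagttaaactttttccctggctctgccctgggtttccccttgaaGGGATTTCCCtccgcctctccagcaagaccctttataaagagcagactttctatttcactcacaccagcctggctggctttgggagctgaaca
Osmr: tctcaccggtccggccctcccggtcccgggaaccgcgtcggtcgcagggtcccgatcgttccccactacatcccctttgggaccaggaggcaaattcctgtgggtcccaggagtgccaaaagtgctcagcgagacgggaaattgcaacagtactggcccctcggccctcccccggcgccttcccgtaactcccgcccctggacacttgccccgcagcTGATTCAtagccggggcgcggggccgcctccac
The 3 motifs searched were looked for on both strands in the 300 bases from 250 before to 50 after each start: the kappaB consensus, AP-1 (TGANTCA) and STAT (TTCNNNGAA). The matches shown overlap no match to another motif. Such windows held a kappaB match in 7.51% of 33469 RefSeq promoters, an AP-1 match in 7.33% and a STAT match in 8.87%. Among the 9 genes analysed, kappaB matches lay before Vcam1, Vim and Lcn2, an AP-1 match before Osmr, and no STAT match was in any of these windows.

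Cytosine arabinoside lowered 7 of the 9 genes at every concentration: Vcam1, Cd44, Timp1, S1pr3, Osmr, Vim and Stat3. For each of the 7, all 3 dosed libraries lay below all 3 of the 0 µM libraries at each concentration, as they did for 9.75%, 12.1% and 15.8% of all genes tested. Of all genes tested, 6.75% were called lower and 2.38% higher at 0.1 µM (9.13% in all), 11.7% and 5.96% at 0.3 µM (17.6%), and 19.4% and 16.6% at 1 µM (36%). The median log2 change of the 9 genes was -1.41, -1.55 and -2.26 at the 3 concentrations, against 0.01, 0.02 and 0.03 over all genes. As the 9 genes were chosen with earlier results of these data known, their counts and medians beside those of all genes are descriptions, here and for 5-fluorouracil. The mitochondrial share moved with the highest concentration, at 4.61, 2.96 and 3.23% in the 0 µM and 9.12, 3.66 and 3.79% in the 1 µM libraries, the first of which was the highest of the series. Without that library the same count of 7 genes was called at 1 µM, and the part of this share in the changes was not tested. 5-Fluorouracil lowered none of the 9 at 0.1 or 0.3 µM and 5 of them at 1 µM, namely Cd44, Timp1, S1pr3, Osmr and Vim. Of all genes, 0% were called lower and 0.00652% higher at 0.1 µM (0.00652% in all), 0.0391% and 0.00652% at 0.3 µM (0.0456%), and 3.34% and 0.691% at 1 µM (4.03%). The median log2 change of the 9 genes was 0.10, -0.35 and -1.20, against -0.00, -0.01 and 0.01 over all genes. At an unadjusted p under 0.05 the 5-fluorouracil libraries gave 0 of the 9 genes at 0.1 µM and 1 at 0.3 µM, Vim, and DESeq2 called 0 at both. All dosed libraries lay below both 0 µM libraries for 1, 3 and 8 of the 9 genes at the 3 concentrations, and for 9.08%, 8.62% and 13.8% of all genes. From 0.1 to 0.3 µM of 5-fluorouracil none of the 9 was called (0.0326% of all genes lower), 3 had an unadjusted p under 0.05 and DESeq2 called 1, Vim (adjusted p 0.0492).

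**Figure D1:**
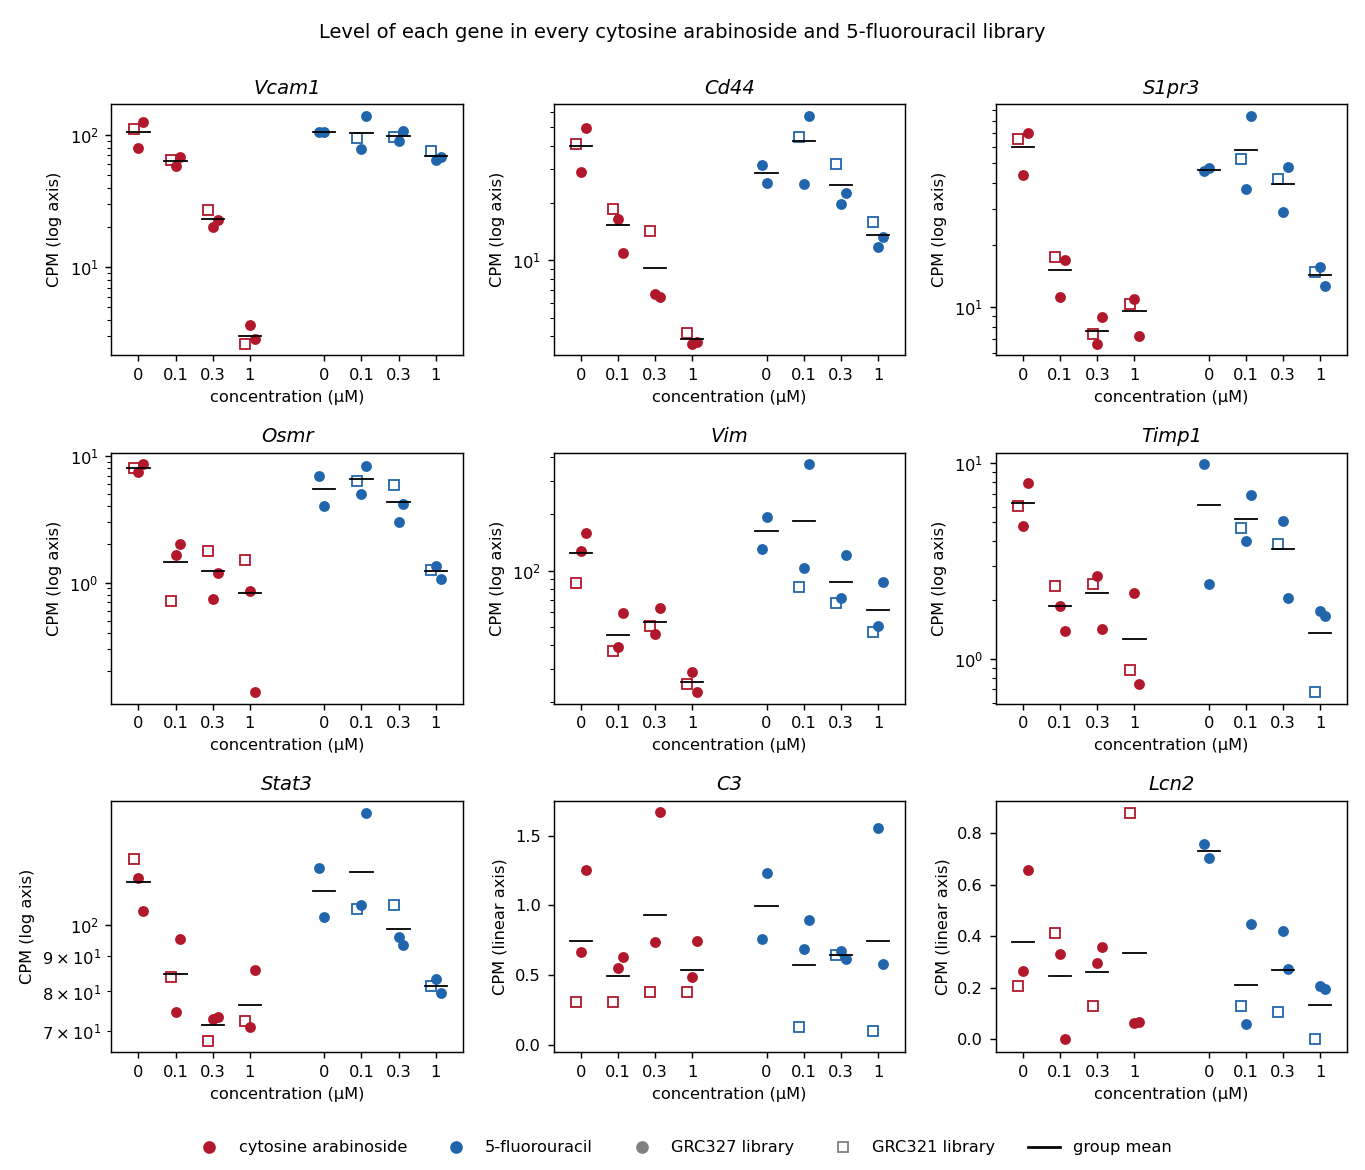
CPM of the 9 genes in each cytosine arabinoside (red) and 5-fluorouracil (blue) library by concentration in µM, on a log axis except for C3 and Lcn2, with open squares for GRC321, filled circles for GRC327 and a bar at the group mean. Vcam1 in the cytosine arabinoside libraries drops from 79.7 to 124 CPM at 0 µM to 2.64 to 3.64 CPM at 1 µM, while in the 5-fluorouracil libraries it stays between 64.1 and 139 CPM.

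Among the genes of adhesion and matrix, Vcam1 (chromosome 2, 219071193 to 219097620, minus strand, overlapping a U1 gene model) codes for the vascular cell adhesion molecule, a partner of integrin alpha4 beta1 that cytokines raise on endothelium and astrocytes. With cytosine arabinoside it was at 111, 79.7 and 124 CPM at 0 µM, 65.1, 58.4 and 68.4 at 0.1 µM, 26.9, 20.1 and 22.6 at 0.3 µM, and 2.64, 3.64 and 2.85 at 1 µM. No 2 of these 4 groups overlap, and each step of concentration brought a lower level. The fitted log2 changes were -0.71 ± 0.16 (SE, adjusted p 0.00209), -2.18 ± 0.18 (adjusted p 3.67e-14) and -5.06 ± 0.21 (adjusted p 4.05e-25), the last a 33.4-fold lower level. The change at 0.1 µM lost its call without the third 0 µM library (-0.53, adjusted p 0.0658) and with the GRC327 libraries alone (-0.69, adjusted p 0.0612). The steps from 0.1 to 0.3 µM (-1.46, adjusted p 1.09e-07) and from 0.3 to 1 µM (-2.88, adjusted p 1.47e-14) were called too, in comparisons that called 2.11% and 7.96% of all genes lower.

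With 5-fluorouracil, Vcam1 was at 106 and 106 CPM at 0 µM, 95.005, 77.8 and 139 at 0.1 µM, 96.8, 89.6 and 108 at 0.3 µM, and 75.9, 64.1 and 67.5 at 1 µM. The 3 libraries at 1 µM lay below the 0 µM libraries, and the other groups overlapped them. The log2 change at 1 µM was -0.61 ± 0.19 with an adjusted p of 0.0509, just above the threshold. It passed with DESeq2 (adjusted p 0.0409), with the 0 µM libraries of all compounds as controls (0.00481), with a minimum count of 50 (0.0396), with no filter (0.0471) and without the first 1 µM library (-0.68, adjusted p 0.0372). Set against each other at the same concentration, the cytosine arabinoside effect was lower than the 5-fluorouracil effect by 2.07 on the log2 scale at 0.3 µM (SE 0.26, adjusted p 5.62e-08) and by 4.45 at 1 µM (SE 0.29, adjusted p 6.23e-17). At 0.1 µM the difference of -0.69 (95% interval -1.19 to -0.18, adjusted p 0.133) was not called, but passed without the second cytosine arabinoside 0 µM library (-0.85, adjusted p 0.0449) or the second 5-fluorouracil 0.1 µM library (-0.90, adjusted p 0.0236), with the 0 µM libraries of all compounds as controls (0.00644) and with a term for each series of libraries with consecutive title numbers (0.0498).

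Cd44 (chromosome 3, 92696313 to 92783659, minus strand) codes for the main receptor for hyaluronan, made by astrocytes, glial precursors and many immune cells. With cytosine arabinoside it was at 40.7, 29.3 and 49.6 CPM at 0 µM, 18.5, 16.5 and 10.9 at 0.1 µM, 14.2, 6.63 and 6.43 at 0.3 µM, and 4.15, 3.64 and 3.73 at 1 µM. Only the 0.1 and 0.3 µM groups overlap. The log2 changes were -1.41 ± 0.27 (adjusted p 0.000166), -2.18 ± 0.29 (3.69e-08) and -3.37 ± 0.30 (2.08e-13), the last 10.4-fold. The step from 0.3 to 1 µM was -1.19 (adjusted p 0.00904), and was not called without the first 0.3 µM library (-0.83, 0.197) or the first 1 µM library (-1.09, 0.0598), with the GRC327 libraries alone (0.349) or with no term for the code (0.0618). With 5-fluorouracil, Cd44 was at 31.8 and 25.5 CPM at 0 µM, 44.3, 25.2 and 57.4 at 0.1 µM, 31.9, 19.8 and 22.6 at 0.3 µM, and 15.9, 11.7 and 13.3 at 1 µM. The 1 µM libraries stood below all others, with a log2 change of -1.20 ± 0.30 (adjusted p 0.0107). That call was lost without the first 0 µM library (-1.03, 0.133) or the second 1 µM library (-1.14, 0.0718), with the GRC327 libraries alone (-1.19, 0.0605), and with no term for the code (-1.07, 0.289). The cytosine arabinoside effect was the lower at each concentration, by 1.84 (SE 0.40, adjusted p 0.0024), 1.84 (SE 0.42, 0.00198) and 2.18 (SE 0.43, 0.000177) on the log2 scale. The difference at 0.1 µM was not called without the third 5-fluorouracil 0.1 µM library (-1.35, 0.0753), and those at 0.1 and 0.3 µM were not called with no term for the code (0.0913 and 0.0599).

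Timp1 (1364786 to 1369385, minus strand) codes for a secreted inhibitor of matrix metalloproteinases that reactive astrocytes make. Its model on chromosome X lies inside that of Syn1 on the other strand, and no source used here says whether reads were counted by strand. Whether reads of the pair were kept apart is therefore not known. With cytosine arabinoside Timp1 was at 6.01, 4.78 and 7.96 CPM at 0 µM, 2.37, 1.87 and 1.39 at 0.1 µM, 2.42, 2.65 and 1.43 at 0.3 µM, and 0.880, 2.19 and 0.747 at 1 µM. The dosed groups overlap each other and lie below the 0 µM libraries. The log2 changes were -1.72 ± 0.39 (adjusted p 0.00166), -1.55 ± 0.39 (0.00278) and -2.22 ± 0.39 (6.19e-06). Syn1 was at a mean of 410 CPM at 0 µM and 416 CPM at 1 µM (log2 change 0.02, adjusted p 0.888).

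With 5-fluorouracil, Timp1 was at 9.88 and 2.41 CPM at 0 µM, 4.66, 4.003 and 6.86 at 0.1 µM, 3.85, 5.06 and 2.04 at 0.3 µM, and 0.678, 1.76 and 1.65 at 1 µM. The 0 µM libraries span the 0.1 µM group, and the 1 µM libraries lie below all others. The log2 change at 1 µM was -2.07 ± 0.44 (adjusted p 0.00137), and it rests on the first 0 µM library: without it the change was -0.75 (0.523). It was also not called with the GRC327 libraries alone (-1.81, 0.0501) or in a fit of the 5-fluorouracil libraries by themselves (0.0739). The difference between the effects of the compounds was not called at any concentration, with -1.55 (95% interval -2.68 to -0.42), -0.89 (-2.03 to 0.25) and -0.15 (-1.35 to 1.06) on the log2 scale. Without that 0 µM library the differences were called at 0.1 µM (-2.87, adjusted p 0.00165) and at 0.3 µM (-2.21, 0.014). The difference at 0.1 µM was also called with the 0 µM libraries of all compounds as controls (-1.43, 0.0182) and with a term for each title number series (-1.73, 0.0475).

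Of the receptors, S1pr3 (chromosome 17, 13799383 to 13812705, minus strand) codes for a receptor for sphingosine 1-phosphate, a lipid signal to which astrocytes respond. With cytosine arabinoside it was at 65.2, 43.5 and 69.4 CPM at 0 µM, 17.4, 11.2 and 16.97 at 0.1 µM, 7.37, 6.63 and 8.93 at 0.3 µM, and 10.3, 10.99 and 7.26 at 1 µM. The level at 0.1 µM was already far below that at 0 µM, and the 0.3 and 1 µM groups overlap. The log2 changes were -1.97 ± 0.20 (adjusted p 1.78e-10), -2.94 ± 0.22 (3.02e-15) and -2.64 ± 0.21 (3.5e-15). The step from 0.1 to 0.3 µM was -0.97 (adjusted p 0.00874), and was not called without the first (-0.91, 0.083) or the third (-0.84, 0.0927) 0.1 µM library or the first (-0.87, 0.1) or second (-0.91, 0.0783) 0.3 µM library, with the GRC327 libraries alone (0.425), in a fit of the cytosine arabinoside libraries by themselves (0.113) or with no term for the code (0.0777). The step from 0.3 to 1 µM was 0.31 (adjusted p 0.43).

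With 5-fluorouracil, S1pr3 was at 45.4 and 47.1 CPM at 0 µM, 52.3, 37.2 and 84.5 at 0.1 µM, 41.7, 28.7 and 47.5 at 0.3 µM, and 14.8, 15.6 and 12.6 at 1 µM. Only the 1 µM group lies apart, below every other library of the compound. The log2 change at 1 µM was -1.69 ± 0.23 (adjusted p 3.04e-07), and the step from 0.3 to 1 µM was -1.46 (adjusted p 1.12e-06), in a comparison with 2.2% of all genes called lower. The effect of cytosine arabinoside was the lower by 2.28 (SE 0.30, adjusted p 2.97e-07) at 0.1 µM and by 2.71 (SE 0.31, 8.69e-09) at 0.3 µM. At 1 µM it was lower by 0.95 (SE 0.31, adjusted p 0.0303), a call held in 5 of 10 alternative fits, with adjusted p up to 0.208. It was lost without the first or the third cytosine arabinoside library at 0 or at 1 µM, without either 5-fluorouracil library at 0 µM and without the first or the second at 1 µM, with differences from -0.98 to -0.75 and adjusted p from 0.0525 to 0.124.

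Osmr (chromosome 2, 56110777 to 56151532, minus strand, overlapping small RNA gene models) codes for the receptor chain for oncostatin M, a cytokine of the interleukin 6 family. With cytosine arabinoside it was at 7.98, 7.43 and 8.61 CPM at 0 µM, 0.721, 1.65 and 2.03 at 0.1 µM, 1.78, 0.737 and 1.19 at 0.3 µM, and 1.51, 0.850 and 0.136 at 1 µM. The 3 dosed groups overlap each other, all far below 0 µM. The log2 changes were -2.47 ± 0.40 (adjusted p 8.38e-06), -2.68 ± 0.42 (1.44e-06) and -3.42 ± 0.42 (2.04e-09). With 5-fluorouracil, Osmr was at 6.99 and 3.997 CPM at 0 µM, 6.34, 4.98 and 8.35 at 0.1 µM, 5.88, 3.03 and 4.15 at 0.3 µM, and 1.26, 1.34 and 1.07 at 1 µM. Its 1 µM libraries reach the range of the cytosine arabinoside libraries, and the lower concentrations overlap 0 µM. The log2 change at 1 µM was -2.25 ± 0.45 (adjusted p 0.000564). The step from 0.3 to 1 µM, -1.80 (0.0054), was not called without the first 0.3 µM library (-1.56, 0.0987) or the first 1 µM library (-1.70, 0.0615), or with the GRC327 libraries alone (0.217).

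The Osmr effect of cytosine arabinoside was the lower by 2.62 (SE 0.56, adjusted p 0.00197) at 0.1 µM and by 2.24 (SE 0.58, 0.00924) at 0.3 µM. The latter was not called without the second 5-fluorouracil 0 µM library (-1.88, 0.108) or in a fit of these 2 compounds alone (0.0585). At 1 µM the difference was -1.17, with an interval from -2.46 to 0.12 that includes 0 and an adjusted p of 0.269.

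Stat3 (chromosome 10, 88790408 to 88842234, minus strand) codes for the transcription factor on which the interleukin 6 family of receptors converges. With cytosine arabinoside it was at 125, 117 and 105 CPM at 0 µM, 84.0, 74.7 and 95.4 at 0.1 µM, 67.9, 73.0 and 73.5 at 0.3 µM, and 72.4, 71.04 and 85.9 at 1 µM. The dosed libraries all lie below 0 µM, in a narrower band than for the other called genes. The log2 changes were -0.45 ± 0.14 (adjusted p 0.0311), -0.69 ± 0.14 (0.000172) and -0.59 ± 0.14 (0.000539), the smallest of the 7. The call at 0.1 µM was lost without the first (-0.36, 0.178) or second (-0.44, 0.081) 0 µM library and without the first (-0.45, 0.0979) or second (-0.36, 0.2) 0.1 µM library. It was also lost with 1 shared term for the code (0.0565), with the GRC327 libraries alone (0.301), in a fit of the cytosine arabinoside libraries by themselves (0.112) and with no term for the code (0.135). The call at 1 µM was lost with the GRC327 libraries alone (-0.50, 0.0526). With 5-fluorouracil, Stat3 was at 121 and 103 CPM at 0 µM, 105, 107 and 145 at 0.1 µM, 107, 96.1 and 93.4 at 0.3 µM, and 81.5, 83.4 and 79.6 at 1 µM. The 1 µM libraries lie below all others, but the log2 change of -0.45 ± 0.16 (adjusted p 0.113) was not called. It passed with the 0 µM libraries of all compounds as controls (-0.39, 0.0162). The differences between the compounds were -0.55 (95% interval -0.97 to -0.12), -0.52 (-0.95 to -0.09) and -0.15 (-0.57 to 0.28), with adjusted p of 0.173, 0.182 and 0.748. Those at 0.1 and 0.3 µM were called with the 0 µM libraries of all compounds as controls (0.0243 and 0.0332) and with a term for each title number series (0.0432 and 0.0481).

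Vim (chromosome 17, 80882666 to 80891213, plus strand) codes for vimentin, an intermediate filament of radial glia, astrocytes and fibroblasts, among other cells. With cytosine arabinoside it was at 85.7, 127 and 159 CPM at 0 µM, 37.5, 39.2 and 59.7 at 0.1 µM, 50.7, 45.9 and 63.3 at 0.3 µM, and 24.9, 28.8 and 22.6 at 1 µM. The 0.1 and 0.3 µM groups overlap, and the 1 µM group lies below both. The log2 changes were -1.44 ± 0.25 (adjusted p 4.85e-05), -1.19 ± 0.25 (0.000349) and -2.26 ± 0.26 (5.54e-10), and the step from 0.3 to 1 µM was -1.07 (0.00284). That step was not called with the GRC327 libraries alone (0.0595) or with no term for the code (0.0694). With 5-fluorouracil, Vim was at 131 and 192 CPM at 0 µM, 81.3, 103 and 367 at 0.1 µM, 67.0, 71.8 and 121 at 0.3 µM, and 47.2, 50.8 and 87.4 at 1 µM. The spread within these groups was wide, and both the 0.3 and the 1 µM libraries lay below 0 µM. The log2 change at 0.3 µM was -0.63 ± 0.28 (unadjusted p 0.0293, adjusted p 1), and at 1 µM -1.12 ± 0.28 (adjusted p 0.0106). The 1 µM call was lost without the second 0 µM library (-0.82, 0.286), without the second 1 µM library (-0.85, 0.179) and in a fit of the 5-fluorouracil libraries by themselves (-1.12, 0.2). The second 0 µM library, at 192 CPM of Vim, is the one with 22.3 CPM of choroid plexus and ependymal markers, whose part in the result was not tested.

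The Vim effect of cytosine arabinoside was the lower by 1.78 at 0.1 µM (SE 0.38, adjusted p 0.00182). Without the 0.1 µM library at 367 CPM that difference was -0.86 (0.195), and it was not called in a fit of these 2 compounds alone (0.096) or with no term for the code (0.159). At 0.3 µM it was -0.56 (95% interval -1.32 to 0.21, adjusted p 0.576), and at 1 µM it was called at -1.14 (SE 0.39, adjusted p 0.0393), a call held in 5 of 10 alternative fits, with adjusted p up to 0.47. It was lost without the third 0 µM or the second or the third 1 µM library of cytosine arabinoside, and without the first 0 µM or the first or the third 1 µM library of 5-fluorouracil, with differences from -1.19 to -0.89 and adjusted p from 0.0507 to 0.213. Control levels of Vim also moved with the library code: over the 16 libraries at 0 µM of all compounds the median was 85.7 CPM in GRC321 and 145 CPM in GRC327.

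The secreted immune genes were near the limit of detection. C3 (chromosome 9, 9721105 to 9747168, plus strand) codes for the central complement protein, and Lcn2 (chromosome 3, 11414186 to 11417547, minus strand) for lipocalin 2, a siderophore-binding protein that reactive astrocytes release. In the cytosine arabinoside libraries C3 had 3, 10 and 21 counts at 0 µM and 3, 8 and 11 at 1 µM. Lcn2 had 2, 4 and 11 counts at 0 µM and 7, 1 and 1 at 1 µM. In the 5-fluorouracil libraries C3 had 10 and 21 counts at 0 µM and 1, 15 and 6 at 1 µM, and Lcn2 10 and 12 against 0, 2 and 2, where a count of 0 allows up to 3. With cytosine arabinoside the 0 and 1 µM groups of both genes overlap. With 5-fluorouracil all Lcn2 libraries at 0.1, 0.3 and 1 µM (0.447 CPM or less) lay below the 0 µM libraries (0.705 and 0.760 CPM). C3 lay below 0 µM (0.760 and 1.23 CPM) at 0.3 µM alone, where it was at 0.642, 0.674 and 0.613 CPM. Neither gene was called in any of the comparisons above. The log2 changes of Lcn2 were -0.74 (adjusted p 0.561) with cytosine arabinoside and -2.03 ± 1.08 (0.365) with 5-fluorouracil at 1 µM, and those of C3 were -0.47 (0.589) and -0.18 (0.935).

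**Figure D2:**
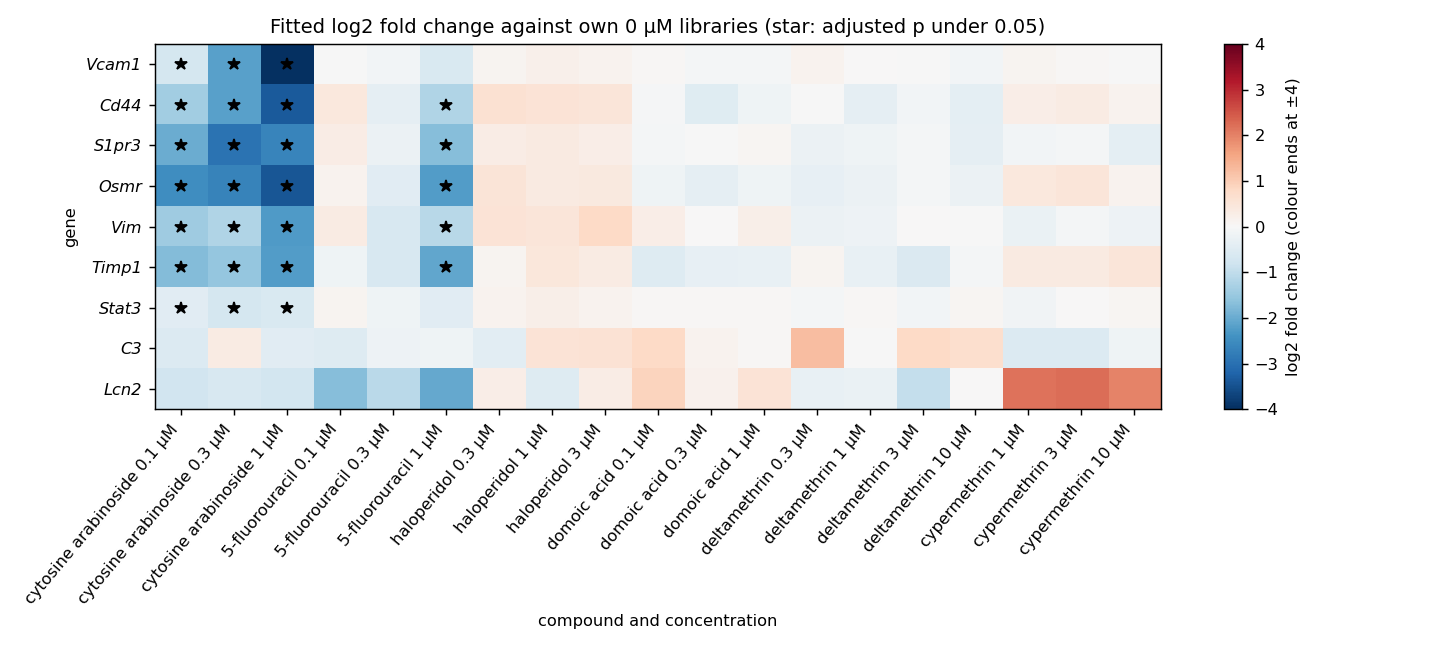
Fitted log2 fold change against the own 0 µM libraries as colour (blue lower, red higher, ends of the scale at 4 either way), for the 9 genes (rows) in 19 comparisons of 6 compounds (columns), with a star where the adjusted p was under 0.05. Stars mark 7 genes at each concentration of cytosine arabinoside and 5 at 1 µM of 5-fluorouracil, and no other column has one.

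Set side by side, the effect of cytosine arabinoside was lower than that of 5-fluorouracil for 4 of the 9 genes at each of the 3 matched concentrations. These were Cd44, S1pr3, Osmr and Vim at 0.1 µM, Vcam1, Cd44, S1pr3 and Osmr at 0.3 µM, and Vcam1, Cd44, S1pr3 and Vim at 1 µM. Of all genes, 3.42%, 5.19% and 8.64% were called lower in these comparisons. The estimated gap took different courses over the concentrations in Vcam1, S1pr3 and Osmr. For Vcam1 it was -0.69, -2.07 and -4.45 from the lowest to the highest concentration, while for S1pr3 it was -2.28, -2.71 and -0.95 and for Osmr -2.62, -2.24 and -1.17. Whether these gaps differed between concentrations was not tested.

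**Figure D3:**
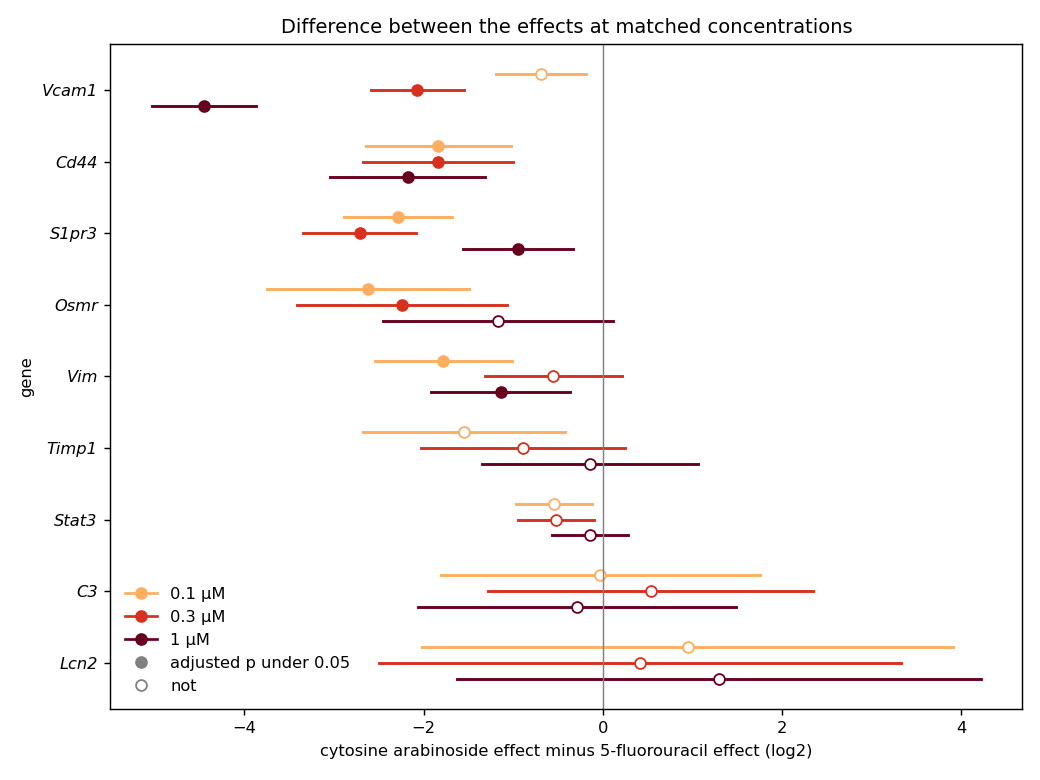
Difference of the log2 fold changes, cytosine arabinoside minus 5-fluorouracil (horizontal axis), with its 95% interval, for the 9 genes at 0.1, 0.3 and 1 µM, filled where the adjusted p was under 0.05. Points left of 0 mark a lower effect of cytosine arabinoside, and Vcam1 at 1 µM lies farthest left at -4.45.

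Markers of glial cells, on lists chosen with earlier results of these data known, moved with these genes. The summed level of the 22 astrocyte markers was 4935 CPM at 0 µM (4155 to 6040 CPM), 3086 at 0.1 µM (2870 to 3347), 1398 at 0.3 µM (1198 to 1731) and 389 at 1 µM (340 to 444) of cytosine arabinoside. Of these 22 markers, 11, 20 and 21 were called lower at the 3 concentrations, beside 6.75%, 11.7% and 19.4% of all genes, and 1, Gjb6, was called higher at 1 µM. With 5-fluorouracil the sum was 4966 CPM at 0 µM (4767 to 5165) and 3218 at 1 µM (2934 to 3706), with 4 of 22 called lower beside 3.34% of all genes. None of the 22 was at 0 in any of these groups.

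The summed level of 18 oligodendrocyte markers had already dropped from 1702 CPM at 0 µM (1470 to 1831) to 171 at 0.1 µM of cytosine arabinoside (161 to 185), and was 99.5 at 1 µM (80.5 to 109). With 5-fluorouracil it was 1709 at 0 µM (1687 to 1731), 1548 at 0.1 µM (1429 to 1609), 1014 at 0.3 µM (874 to 1121) and 204 at 1 µM (184 to 218). In each of the cytosine arabinoside groups and at 1 µM of 5-fluorouracil 17 of the 18 were called lower. Beside these counts stand 6.75%, 11.7% and 19.4% of all genes with cytosine arabinoside and 3.34% with 5-fluorouracil. As this list was chosen with earlier results of these data known, the counts are descriptions.

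Of the 15 fibroblast and vascular markers in the table, 12 were tested, and 2, 2 and 5 were called lower at 0.1, 0.3 and 1 µM of cytosine arabinoside, none at 1 µM of 5-fluorouracil. At 0.3 µM the 2 of 12 are near the share of all genes, 11.7%. Their sum was 50.4 CPM at 0 µM (16.7 to 103) and 10.4 at 1 µM (6.68 to 15.95) of cytosine arabinoside, and 51.7 (29.6 to 73.8) and 36.2 (11.04 to 61.6) for 5-fluorouracil. Among them, Pdgfrb, the receptor that marks pericytes, had a log2 change of -4.18 (adjusted p 1.91e-12) at 1 µM of cytosine arabinoside. Of the 16 listed microglial markers 12 are in the table, and their sum was 20.7 CPM at 0 µM (15.5 to 28.8) and 18.2 CPM at 1 µM (13.8 to 23.8) of cytosine arabinoside, with 2 and 4 of the 12 at no count. The part of the glial, fibroblast and vascular markers in the falls above was not tested.

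**Figure D4:**
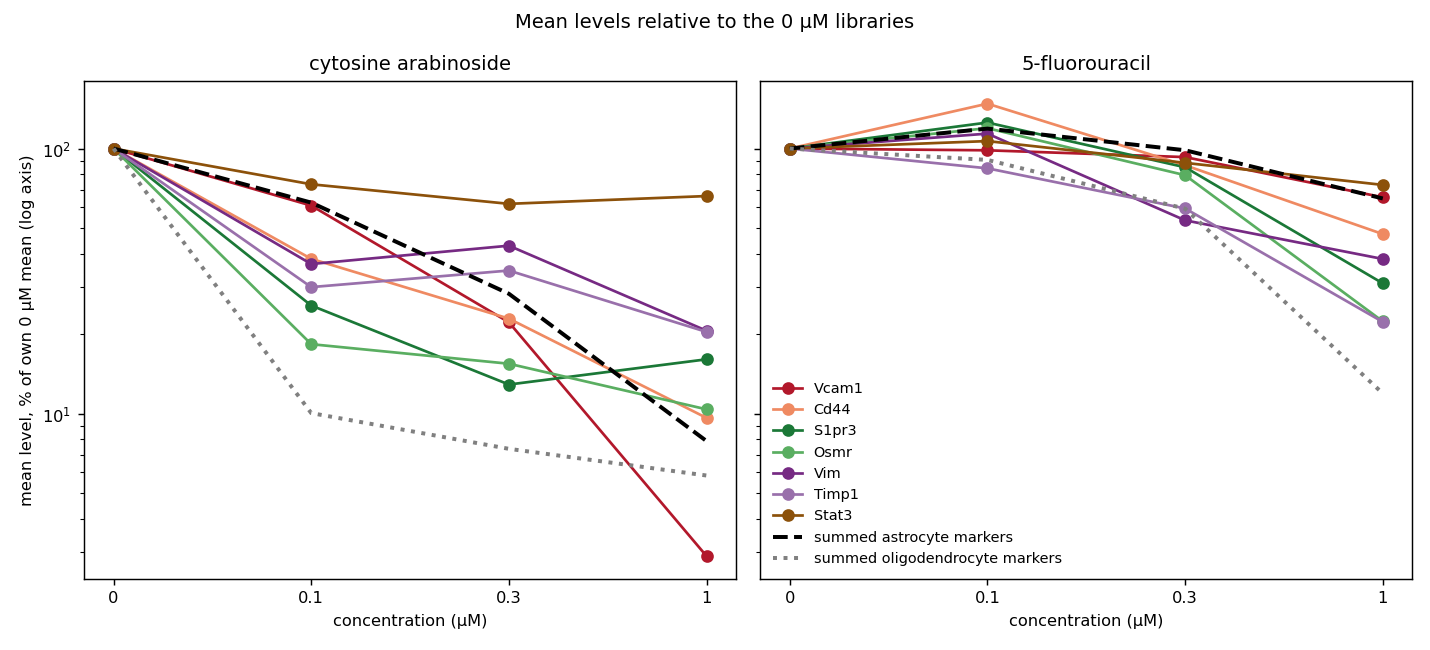
Level as a percent of the mean of the own 0 µM libraries (log axis; points and lines join group means, with no error shown) for 7 genes and for the summed astrocyte and oligodendrocyte markers, by concentration of cytosine arabinoside and 5-fluorouracil. At 0.1 µM cytosine arabinoside the astrocyte sum is at 62.5% and the oligodendrocyte sum at 10.1%. Between them lie Osmr at 18.3%, S1pr3 at 25.6%, Timp1 at 30.0%, Vim at 36.7%, Cd44 at 38.4% and Vcam1 at 60.9%. Stat3 lies above both, at 73.3%.

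Beside the astrocyte sum, the genes took different courses. Vcam1 was 2.13% of that sum at 0 µM, 2.08% at 0.1 µM, 1.67% at 0.3 µM and 0.783% at 1 µM of cytosine arabinoside, and the 1 µM libraries (0.689 to 0.839%) lay below those at 0 µM (1.92 to 2.41%). With 5-fluorouracil it was 2.13% at 0 µM and 2.16% at 1 µM. S1pr3 was 1.20% of the sum at 0 µM, 0.489% at 0.1 µM and 2.43% at 1 µM of cytosine arabinoside, below the 0 µM libraries (1.05 to 1.41%) at 0.1 µM and above them at 1 µM, and 0.933% and 0.450% at 0 and 1 µM of 5-fluorouracil. Osmr was 0.165%, 0.0485%, 0.0862% and 0.208% over the 4 cytosine arabinoside groups, and its 1 µM libraries (0.0400 to 0.394%) span those at 0 µM (0.143 to 0.179%). Cd44 was 0.803%, 0.495%, 0.628% and 1.001%, with overlapping libraries at 0 µM (0.704 to 0.884%) and 1 µM (0.821 to 1.10%). Vim was 2.52%, 1.48%, 3.92% and 6.55%, and Timp1 0.126%, 0.0605%, 0.158% and 0.314%, each with all 1 µM libraries above those at 0 µM. Stat3, at 2.42%, 2.75%, 5.27% and 20.1%, showed the widest range of the 7 called genes. With 5-fluorouracil the means at 0 and 1 µM were 0.112% and 0.0384% for Osmr, and 0.580% and 0.423% for Cd44. They were 3.23% and 1.97% for Vim, 0.127% and 0.0443% for Timp1, and 2.26% and 2.56% for Stat3. All 1 µM libraries of Osmr and Cd44 lay below those at 0 µM, and the groups of Vim, Timp1 and Stat3 overlapped. These ratios are descriptions, with no test.

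Under the other 4 compounds none of the 9 genes was called. Among their groups, deltamethrin at 0.3 µM held only 1 library and cypermethrin at 0 µM only 2. Haloperidol (0.3, 1 and 3 µM), domoic acid (0.1, 0.3 and 1 µM), deltamethrin (0.3, 1, 3 and 10 µM) and cypermethrin (1, 3 and 10 µM) gave 13 comparisons with their own 0 µM libraries, and 0 of the 117 tests of the 9 genes were called by edgeR and 0 by DESeq2, while 5 had an unadjusted p under 0.05. In 11 of the 13 comparisons no gene was called in either direction (0%), with 293 to 1105 genes at an unadjusted p under 0.05. Domoic acid at 0.3 µM called 1.51% of all genes, 0.3% lower and 1.21% higher, and haloperidol at 3 µM 0.0261%, all lower (4 genes, and 14 with a term for each series of title numbers). Over the 37 dosed libraries of these compounds, Vcam1 ran from 69.0 to 136 CPM with a median of 103, beside 77.5 to 131 with a median of 103 in the 16 libraries at 0 µM. S1pr3 ran from 39.5 to 77.03 CPM beside 36.5 to 77.04. At 10 µM it lay below all 0 µM libraries with deltamethrin (46.3 to 48.0 CPM against 51.1 to 66.9, log2 change -0.35, adjusted p 0.959) and with cypermethrin (44.2 to 54.7 CPM against 60.3 to 70.5, -0.40, 0.704), as did 2.77% and 4.8% of all genes. Other uncalled genes lay apart from 0 µM too. Cd44 and Timp1 were lower at 0.3 µM of domoic acid, and Timp1 also at 0.1 µM. Timp1 and Lcn2 were lower at 3 µM of deltamethrin. The shares of all genes for these groups are not given here. Stat3 was higher at 1 µM of haloperidol, as were 2.04% of all genes. Osmr ran from 4.20 to 12.9 beside 2.31 to 9.68, and Stat3 from 85.0 to 145 beside 76.7 to 125.

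Those 5 tests were all of Cd44 and Vim under haloperidol, a dopamine receptor blocker. Vim was at 104 ± 18.4 CPM (SD, n = 3) without haloperidol and at 153 ± 30.9, 146 ± 19.5 and 178 ± 19.8 CPM at 0.3, 1 and 3 µM. All 3 libraries at 1 µM (124 CPM or more) and at 3 µM (165 CPM or more) lay above those at 0 µM (122 CPM or less), as did 2.04% and 2.01% of all genes. The log2 change there was 0.79 ± 0.25 with an adjusted p of 0.534, and 0.0142 in a fit of the haloperidol libraries by themselves. Cd44 was at 30.3 ± 11.6 CPM without haloperidol and at 46.7 ± 22.8, 45.8 ± 26.0 and 43.5 ± 22.8 CPM with it, and those groups overlap. Within each of the 3 series of haloperidol libraries with consecutive title numbers, Vim was higher in every dosed library than at 0 µM. Cd44 was higher too in the first series, at 43.1 CPM without haloperidol and 65.3 to 72.8 CPM with it, and in the second, at 27.4 and 43.9 to 45.8 CPM. In the last series it was at 20.4 CPM without and 24.4, 20.9 and 19.7 CPM at 0.3, 1 and 3 µM. S1pr3 was higher in every dosed library of all 3 series, at 56.7 CPM without haloperidol and 66.3 to 71.7 CPM with it in the first, 36.5 and 41.8 to 47.3 in the second, and 39.95 and 50.1 to 51.9 in the last. Its log2 changes of 0.30, 0.35 and 0.27 had unadjusted p of 0.119, 0.0722 and 0.163. The series were set after seeing the data, from title numbers whose meaning the labels do not give. The share of all genes with such patterns within the series is not given here, so the patterns of Vim, Cd44 and S1pr3 are descriptions only. With a term for each such series none of the 9 genes was called under haloperidol. Other markers moved with Vim: the astrocyte sum was 4394 CPM at 0 µM (4158 to 4564) and 5569 (4936 to 6305), 5406 (5097 to 5607) and 5386 CPM (5059 to 5749) at the 3 concentrations. The fibroblast and vascular sum was 38.0 CPM (17.98 to 65.9) and then 52.7 (23.4 to 103), 56.5 (21.8 to 111) and 71.7 CPM (26.5 to 136). Their part in the Vim values was not tested. The pair of pyrethroids, deltamethrin and cypermethrin, were set against each other at 1, 3 and 10 µM, and none of the 9 genes was called in the difference (lowest adjusted p 0.708).

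Genes of the same pathways were read from lists of partners, chosen with earlier results of these data known. At 1 µM of cytosine arabinoside 19.4% of all genes were called lower and 16.6% higher (36% in all), and at 1 µM of 5-fluorouracil 3.34% and 0.691% (4.03%). Of 18 tested genes of the interleukin 6 family and JAK-STAT signalling, 8 were called lower and 2 higher at 1 µM of cytosine arabinoside, and 0 at 1 µM of 5-fluorouracil. The median log2 change was -0.29 and 0.03. The shared signal chain of the family, Il6st, had a log2 change of -0.63 (adjusted p 9.69e-07) with cytosine arabinoside, the leukaemia inhibitory factor receptor, Lifr, -0.97 (2.53e-06), and the interleukin 6 receptor, Il6r, rose from 2.45 to 10.6 CPM (1.98, 4.38e-05). In the same list, 3 genes had a lower and 1 a higher effect of cytosine arabinoside than of 5-fluorouracil at 1 µM, beside 8.64% and 4.3% of all genes.

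Of 21 tested genes of NF-kB, interleukin 1, tumour necrosis factor and Toll signalling, 7 were called lower and 1 higher with cytosine arabinoside at 1 µM, and 2 lower with 5-fluorouracil, with a median log2 change of -0.42 in both. With cytosine arabinoside the 8 of 21 called in either direction are near the share of all genes, 36%. The receptor for tumour necrosis factor, Tnfrsf1a, was at 29.4 ± 4.08 CPM at 0 µM and 1.51 ± 1.04 CPM at 1 µM of cytosine arabinoside (-4.18, adjusted p 1.68e-18), and changed by -0.98 (0.00727) with 5-fluorouracil. The Toll adaptor Myd88 (-1.67, 0.00118) and the subunit Nfkb2 (-1.91, 0.00143) were lower with cytosine arabinoside, and Ptgs2, the inducible cyclooxygenase, was higher (0.93, 0.00292). Of 9 tested complement genes 2 were lower and 1 higher with cytosine arabinoside, and none was called with 5-fluorouracil, so this list too was near the share of all genes. The proteases C1r and C1s, which act as a pair, had log2 changes of -1.67 (adjusted p 2.25e-05) and 1.03 (0.0285), and the complement inhibitor Cd59 had -0.62 (0.0056).

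Of 21 other genes of reactive astrocytes, 10 were lower and 2 higher with cytosine arabinoside and 3 lower with 5-fluorouracil, both at 1 µM, beside 19.4% lower and 16.6% higher and 3.34% lower over all genes. Their median log2 change was -1.46 and -0.45. Gfap, the astrocyte filament and also on the astrocyte marker list, was at 262 CPM at 0 µM and 3.95 CPM at 1 µM of cytosine arabinoside (-5.94, adjusted p 1.01e-14), and changed by -1.75 (0.0069) with 5-fluorouracil. Nestin (Nes), a filament of neural precursors and reactive astrocytes, went from 130 ± 53.6 to 8.34 ± 5.42 CPM (-3.98, 1.54e-19), and the ferroxidase Cp from 15.1 ± 3.70 to 1.44 ± 0.0690 CPM (-3.31, 5.34e-15). The interferon-induced GTPase Gbp2 had a log2 change of -3.08 (3.19e-11) with cytosine arabinoside and -0.18 with 5-fluorouracil, which was not called.

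Of 23 tested partners in matrix and adhesion, 14 were lower and 2 higher with cytosine arabinoside at 1 µM, with a median log2 change of -1.87, and 5 lower and 1 higher with 5-fluorouracil, with a median of -0.40. These stand beside 19.4% lower and 16.6% higher, and 3.34% and 0.691%, over all genes. In 12 of them the effect of cytosine arabinoside was the lower, beside 8.64% of all genes. The membrane metalloproteinase Mmp14 was at 46.8 CPM at 0 µM and 1.69 CPM at 1 µM (-4.71, adjusted p 1.19e-20). Itgb1, the integrin beta1 chain that pairs with alpha4 to bind Vcam1, changed by -1.53 (9.72e-18) and, with 5-fluorouracil, by -0.47 (0.00755). Both relatives of Timp1 among the leading genes were lower with cytosine arabinoside, Timp3 by -1.87 (1.95e-16) and Timp4 by -3.69 (3.55e-16). With 5-fluorouracil Timp3 changed by -0.98 (4.4e-06) and Timp4 by 0.47 (0.308).

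Of 9 tested genes of sphingosine 1-phosphate signalling, 3 were lower and 1 higher with cytosine arabinoside at 1 µM, with a median of -0.17, and 1 was lower with 5-fluorouracil, with a median of -0.49. The 4 of 9 called with cytosine arabinoside are near the share of all genes, 36%. The receptor S1pr1 went from 84.6 ± 19.6 to 4.25 ± 0.831 CPM (-4.34, adjusted p 3.73e-24) and changed by -0.83 (0.00209) with 5-fluorouracil. Plpp3, a phosphatase of lipid phosphates, changed by -4.53 (5.12e-27), and the exporter Spns2 rose by 0.65 (0.00104). So among the receptors for this lipid, S1pr1 had log2 changes of -4.34 and -0.83 and S1pr3 of -2.64 and -1.69 with the 2 compounds at 1 µM.

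Over the 71 libraries, the genes most like each of the 9 in log2 CPM, after the term for the code was taken out, were described by Pearson's r with no test. The libraries share controls, cultures and compounds. For Vcam1 these were the amino acid transporter Slc38a3 (r 0.985) and Gja1, the astrocyte connexin (0.984), and for S1pr3 they were Timp3 (0.962) and Tspan11 (0.958). For Cd44 they were Tspan12 and Magt1 (0.946 each), for Osmr Mybl1 (0.929) and Sox2 (0.915), and for Vim Igfbp5 (0.909) and Timp3 (0.903). Timp1 was most like Agmo (0.877) and Osmr (0.843), and Stat3 like Itga7 (0.795) and Kif20b (0.787). For the sparsely counted C3 (Gng11, 0.478) and Lcn2 (Serping1, 0.611) the values were lower. Vcam1 and Vim had an r of 0.76 over the 71 libraries, and Cd44 and Osmr of 0.893. Over the 16 controls alone, r was -0.393 for Vcam1 and Vim and 0.744 for Cd44 and Osmr. The term for the code was not taken out of these control values, so they cannot be set against those over all libraries. Control medians in GRC321 and GRC327 were 111 and 99.7 CPM for Vcam1, and 85.7 and 145 CPM for Vim.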

How the data were processed

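RNA was measured in 71 libraries of rat primary cortical cultures exposed to 6 compounds. The authors used Partek and STAR, per the submitters' processing notes, with no version, and a genome build or strandedness of counting is not given in the sources used here. Their deposited table holds expected counts per gene with no scaling, as its values show: 20.6% are not whole (tolerance 1e-06). The expected counts were rounded to whole numbers.

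Groups were compound and concentration in the labels. Genes were filtered with filterByExpr (minimum count 10) and fitted with edgeR 4.0.16 (limma 3.58.1, R 4.3.3) by its quasi-likelihood test, with TMM factors from 0.875 to 1.15. The model of all libraries had 1 coefficient per group and, for each compound, 1 term for the library code (31 columns, 40 residual degrees of freedom), so that all groups entered 1 estimate of the variation. The common biological coefficient of variation was 15.6%. Tests were 2-sided, p-values were adjusted by Benjamini-Hochberg within each comparison, and intervals are at 95%. CPM were computed from the counts and TMM-scaled totals. Each library counted as 1 sample. Pairs of a group differed by 46.2 to 149 times the counting noise across library codes (median 70.3, 45 pairs) and by 3.50 to 78.8 times within GRC327 (median 12.5, 23 pairs), which does not show that they came from separate cultures.

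The genes, the partner lists and the marker lists were chosen with earlier results of these data known. All listed genes are named, with up to 4 genes per partner list by smallest p at 1 µM cytosine arabinoside and the 2 nearest genes by r, and some genes these rules reach are not reported here. Promoter sequences are from RefSeq (GRCr8), in which all 10 listed genes matched. The method was tested on simulated counts that had the same variation for every gene and no effect of the library code. It was therefore not tested under such effects. The alternatives were DESeq2 1.42.0, its size factors in edgeR, no filter, a minimum count of 50, no code term, 1 shared code term, GRC327 alone, the 0 µM libraries of all compounds as controls, a fit per compound, leaving out each library in turn and, chosen after seeing the data, a block of title number series.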

Additional observations from a re-analysis of the deposited data

Results flagged for a closer look

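The effects of cytosine arabinoside and 5-fluorouracil at the same concentration differed by the test of the difference itself (edgeR, adjusted over all genes) in 12 cases, given here as the log2 change with cytosine arabinoside minus that with 5-fluorouracil. At 0.1 µM these were Cd44 (-1.84), S1pr3 (-2.28), Osmr (-2.62) and Vim (-1.78). At 0.3 µM they were Vcam1 (-2.07), Cd44 (-1.84), S1pr3 (-2.71) and Osmr (-2.24). At 1 µM they were Vcam1 (-4.45), Cd44 (-2.18), S1pr3 (-0.95) and Vim (-1.14). Of all genes, 3.42%, 5.19% and 8.64% were called lower in the comparisons at 0.1, 0.3 and 1 µM. The calls of S1pr3 and Vim at 1 µM, and some at the lower concentrations, were lost in alternative fits, as given above for each gene.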

How the results depend on the processing

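A replicate block was added after seeing the data: for each compound, a term for each series of libraries whose titles carry consecutive numbers. The labels do not say what the numbers mark. Over 15343 genes the deviations of the 2 GRC327 series correlated between concentrations at 0.117 to 0.359 for cytosine arabinoside, 0.128 to 0.374 for haloperidol and 0.106 to 0.297 for cypermethrin. They did so at 0.0978 to 0.258 for 5-fluorouracil, -0.0285 to 0.0835 for domoic acid and 0.0135 to 0.104 for deltamethrin, so not every pair passed 0.1. With the replicate block no call of the 9 genes was lost. It called 7 at each concentration of cytosine arabinoside, as without it, and 7 in place of 5 at 1 µM of 5-fluorouracil, adding Vcam1 (-0.62, adjusted p 0.00623) and Stat3 (-0.45, 0.0231). The differences became 7 in place of 4 at 0.1 µM, adding Vcam1, Timp1 and Stat3, and 5 in place of 4 at 0.3 µM, adding Stat3. The 5-fluorouracil steps became 1 in place of 0 and 5 in place of 2. Over all genes it called 16 in place of 7 at 0.3 µM of 5-fluorouracil, 11 in place of 5 at its first step, 14 in place of 4 at 3 µM of haloperidol and 481 in place of 231 at 0.3 µM of domoic acid.

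The counts of called genes among the 9 at 0.1, 0.3 and 1 µM of cytosine arabinoside (7 each) stayed within 1.5 times that count under every alternative. Calls were lost within that range. At 0.1 µM Vcam1 and Stat3 lost theirs with GRC327 alone, and each also in other fits given above. At 1 µM Stat3 lost its call with GRC327 alone. At 1 µM of 5-fluorouracil the main 5 became 3 with GRC327 alone and 3 in a fit per compound, and ran from 3 to 6 without 1 library. For the differences at 0.1 µM, the main 4 became 7 with the 0 µM libraries of all compounds as controls and 2 with no code term, and ran from 2 to 5 without 1 library. At 1 µM the main 4 became 2 with 1 shared code term, with GRC327 alone, in a fit per compound and with no code term, and ran from 2 to 4 without 1 library. For the steps, cytosine arabinoside from 0.1 to 0.3 µM (2) gave 1 with GRC327 alone, a fit per compound or no code term, and 1 to 2 without 1 library, and from 0.3 to 1 µM (3) gave 1 with GRC327 alone or no code term, and 2 to 3 without 1 library. 5-Fluorouracil from 0.1 to 0.3 µM (0) gave 1 with DESeq2 and 0 to 1 without 1 library, and from 0.3 to 1 µM (2) gave 4 with DESeq2, 1 with GRC327 alone and 1 to 3 without 1 library. Haloperidol at 3 µM (0) gave 1 in a fit per compound. The cause was not tested.

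At 1 µM, signs turned only where the main value was not called, with log2 values without 1 library from -1.13 to 0.22 for C3 with 5-fluorouracil, where GRC327 alone gave 0.080, from -0.69 to 0.67 for the C3 difference, from -2.51 to 0.10 for Lcn2 with cytosine arabinoside, from -0.47 to 2.13 for the Lcn2 difference, where GRC327 alone gave -0.87, and from -1.47 to 0.56 for the Timp1 difference. Over all genes, the calls at 1 µM were 5520 for cytosine arabinoside (3113 with no code term), 619 for 5-fluorouracil (2477 with all controls, 274 with no code term, 346 to 654 without 1 library) and 1984 for the difference (3528 and 925). At 0.1 µM of cytosine arabinoside 1401 became 896 with GRC327 alone, 2285 with all controls, 486 in a fit per compound, 505 with no code term and 906 without the second 0.1 µM library, and at 0.3 µM 2703 became 1591 in a fit per compound and 1381 with no code term. The differences at 0.1 and 0.3 µM, 589 and 904, became 1489 and 1687 with all controls, 249 and 600 in a fit per compound, and 175 and 403 with no code term. C3 and Lcn2 had 143 and 74 counts in all 16 control libraries, which limits the precision of their changes.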
